A study of Mus musculus with 4 samples.

Results

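RNA sequencing of whole mouse testes at postnatal day 10 (P10) gave the levels of 10 genes of the DNA damage response, namely Atm, Atr, Chek1, Chek2, Topbp1, H2afx, Mdc1, Trp53bp1, Brca1 and Brca2. They were taken by gene name from a table of 55820 loci, and all 10 were among the 20561 loci that passed the filter on low counts. The samples were 2 libraries of control testes and 2 libraries of Mps1sKO testes, all from male C57BL/6J mice without further treatment. In Mps1sKO mice, Stra8-Cre deletes the floxed Ttk gene, which encodes the kinase MPS1, in germ cells from early spermatogonia onwards, so the somatic cells of the testis keep the gene. The labels call the other group control without naming its alleles, and they do not say whether a library is 1 mouse, so the p-values measure only the spread between these libraries, which may be technical. The libraries are called control 1, control 2, Mps1sKO 1 and Mps1sKO 2 after the numbers in their labels.

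ATM and ATR are large protein kinases that phosphorylate serine or threonine followed by glutamine, ATM mainly in answer to DNA double-strand breaks and ATR in answer to single-stranded DNA at stalled forks and resected ends. Their signal passes to the effector kinases CHK1 and CHK2 and to the histone variant H2AX. The phosphorylated form of H2AX, γH2AX, is bound by MDC1 and marks breaks in mitotic cells as well as the programmed breaks and the sex chromosomes of spermatocytes. TOPBP1 activates ATR, 53BP1 (Trp53bp1) and BRCA1 act on the choice between repair by end joining and by homologous recombination, and BRCA2 acts in homologous recombination and loads the meiotic recombinase DMC1. At P10 the seminiferous tubules hold Sertoli cells, spermatogonia and the earliest spermatocytes, in which SPO11 makes breaks.

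The residue that ATM and ATR mark on H2AX lies at the very end of its coding sequence, which is shown because it holds the site of γH2AX. On GRCm38 with the GENCODE M21 annotation, H2afx has 1 exon and its last 63 coding bases, stop codon included, lie at chr9:44335131-44335193 on the plus strand. In the sequence, the capitals mark the codons for the serine and the glutamine, and the serine codon is number 4 from the last amino acid codon.
H2afx coding end: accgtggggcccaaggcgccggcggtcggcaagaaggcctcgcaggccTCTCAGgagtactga

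Serine or threonine followed by glutamine was counted in the coding sequence of each gene as a description of the letters, not of phosphorylation. The median of 21430 mouse genes with a complete coding sequence was 0.533 such pairs per 100 codons. All 10 genes were above that median. Chek2, with 10 pairs in 546 codons, had the highest density at 1.83 per 100 codons, followed by Mdc1 at 1.52, Trp53bp1 at 1.47 and H2afx at 1.40. Atr, with 17 pairs in 2641 codons, had the lowest density of the group at 0.644, and Topbp1 had 0.792.

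The promoters of Atm, Chek2, Brca1 and Topbp1 are shown because each of these genes starts within 1000 bases of a gene on the opposite strand, so 1 stretch of DNA lies before both. The bases come from the RefSeq promoter table for GRCm38.p6, are written in the direction of the named gene, and are limited to those that lie in no annotated exon. Capitals mark the words of the motifs described in the next paragraph.
Atm, chr9:53536741-53536921, minus strand: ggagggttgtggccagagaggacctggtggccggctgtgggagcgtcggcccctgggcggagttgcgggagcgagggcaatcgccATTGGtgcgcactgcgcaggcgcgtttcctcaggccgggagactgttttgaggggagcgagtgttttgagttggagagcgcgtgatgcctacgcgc
Chek2, chr5:110839778-110839978, plus strand: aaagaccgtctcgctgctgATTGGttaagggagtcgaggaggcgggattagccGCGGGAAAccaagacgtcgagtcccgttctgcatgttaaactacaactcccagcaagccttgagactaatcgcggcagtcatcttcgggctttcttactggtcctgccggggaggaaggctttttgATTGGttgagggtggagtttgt
Brca1, chr11:101551956-101552148, minus strand: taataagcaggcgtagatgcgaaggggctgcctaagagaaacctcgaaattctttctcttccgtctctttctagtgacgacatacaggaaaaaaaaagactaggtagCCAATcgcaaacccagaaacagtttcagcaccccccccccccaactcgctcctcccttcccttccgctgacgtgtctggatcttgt
Topbp1, chr9:103305083-103305214, plus strand: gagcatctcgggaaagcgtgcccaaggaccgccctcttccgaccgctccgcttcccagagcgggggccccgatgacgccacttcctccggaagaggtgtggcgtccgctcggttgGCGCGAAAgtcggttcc

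RefSeq windows from 250 bases before to 50 bases after the start were found for 9 of the 10 genes, H2afx being the exception, and were searched on both strands for short words bound by known regulators. An E2F word (TTTCCCGC, TTTCGCGC, TTTGCCGC or TTTGGCGC), bound by the factors that drive S-phase genes, was in 4 of the 9 windows and in 2.26% of 32851 windows of all genes. These 4 were Chek2, with its first base at −152 from the RefSeq start, Mdc1 at −16, Brca2 at −168 and Topbp1 at −129. CCAAT, the word of the factor NF-Y, was in the windows of Atm, Chek2, Mdc1 and Brca1 and in 37.4% of all windows. The word CNCCTCAG, bound by the meiotic initiator STRA8, was in 1 window, that of Trp53bp1 at −79, and in 7.94% of all windows. TTTGAA, the cell cycle element known as CHR, was in 0 of the 9 and in 17.9% of all windows, and the NRF1 motif was in 0 of the 9 and in 0.971% of all. The words share no matched bases in these windows, and no match says only that the letters are not there.

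Counts summed to 26819122 and 28607746 in the control libraries and to 23311689 and 27093849 in the Mps1sKO libraries. Levels are library-scaled counts (CPM) with edgeR's TMM factors, and every fold change is Mps1sKO relative to control. The edgeR quasi-likelihood test gave each gene a two-sided p, adjusted by the Benjamini-Hochberg method over all 20561 tested loci. With 2 libraries against 2 an exact permutation test cannot go below p = 0.333, so all p-values come from that fit. The targeted gene Ttk had 27.9 and 32.6 CPM in control and 13.0 and 12.2 CPM in Mps1sKO testes. In the edgeR fit this was a log2 fold change of −1.26 (adjusted p = 0.0461 by edgeR, standard error 0.129), and over the other fits of all 4 libraries its adjusted p lay between 1.11e-14 and 0.224. None of the 10 genes had fewer than 426 counts in any library, so counting error was at most 4.85% of a count.

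Of the 10 genes, 8 were lower and 2 higher in Mps1sKO testes by the sign of the fold change alone, with a median log2 fold change of −0.23 and a range from −0.36 to 0.19. Over all tested loci 49.9% were lower and the median was 0.00. At an adjusted p below 0.05 by edgeR 0 of the 10 were called lower and 0 higher, where 0.0292% and 0% of all tested loci were called. At an unadjusted p below 0.05 Chek1 and Brca1 were lower and 0 were higher, against 5.37% and 3.92% of all tested loci in these directions. At the study's own cut-offs, a fold above 1.5 with an unadjusted p below 0.01, 0 were called in either direction, against 0.681% lower and 0.146% higher of all loci. With DESeq2 2 were lower at an unadjusted p below 0.05, against 1.69% of the 35262 loci in that fit. It had no filter on low counts, so its share is not over the same loci as that of edgeR. With limma-voom 2 were lower, against 5.4% of the 20561 filtered loci. Both tools gave 0 higher, and 0 in either direction at an adjusted p. In the plot of fold changes with their intervals, the 95% interval of 8 of the 10 genes includes 0.

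**Figure D1:**
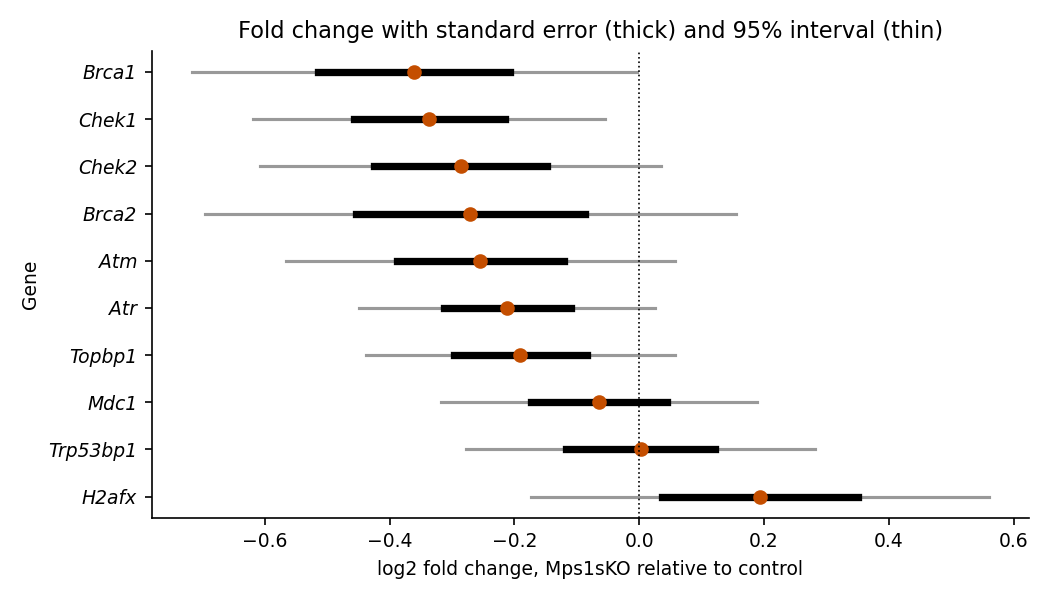
Log2 fold change (x axis, no unit) of each of the 10 genes (y axis) in Mps1sKO relative to control testes, with 2 libraries per group. Points are edgeR estimates, thick bars 1 standard error and thin bars the 95% interval. Only the intervals of Brca1 and Chek1 lie below 0, that of Brca1 by less than 0.01.

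ATM and ATR stand at the top of the pathway. Atm (chromosome 9, 53439149 to 53536740, minus strand) had 144 and 173 CPM in control 1 and 2 and 147 and 118 CPM in Mps1sKO 1 and 2. The groups overlapped, since Mps1sKO 1 lay above control 1. That amounts to a log2 fold change of −0.25 (95% interval −0.57 to 0.06, standard error 0.134, adjusted p = 0.594 by edgeR).

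Atr (chromosome 9, 95857597 to 95951781, plus strand) had 173 and 187 CPM in control and 167 and 145 CPM in Mps1sKO testes. Both Mps1sKO libraries lay below both control libraries, Mps1sKO 1 only slightly. The fitted log2 fold change came to −0.21 (95% interval −0.45 to 0.03, standard error 0.102, adjusted p = 0.573 by edgeR). The levels of the 2 kinases kept a narrow ratio, Atm over Atr being 0.832 and 0.921 in control and 0.885 and 0.816 in Mps1sKO libraries, so the ratio overlapped between the groups.

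Topbp1 (chromosome 9, 103305215 to 103350428, plus strand), the activator of ATR, had 158 and 179 CPM in control and 157 and 138 CPM in Mps1sKO testes. Control 1 and Mps1sKO 1 were nearly level, and the groups did not overlap. On the log2 scale the fitted fold change was −0.19 (95% interval −0.44 to 0.06, standard error 0.106, adjusted p = 0.608 by edgeR). Topbp1 over Atr was 0.913 and 0.954 in control and 0.945 and 0.952 in Mps1sKO libraries.

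Chek1 (chromosome 9, 36708482 to 36727065, minus strand), the effector kinase downstream of ATR that restrains CDC25 phosphatases, had 31.9 and 35.5 CPM in control and 28.8 and 24.6 CPM in Mps1sKO testes. Both Mps1sKO libraries were below both control libraries, and the mean was 79.3% of control. In the edgeR fit this was a log2 fold change of −0.34 (95% interval −0.62 to −0.06, standard error 0.121, unadjusted p = 0.025 and adjusted p = 0.507 by edgeR). It was the smallest p of the 10.

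Chek2 (chromosome 5, 110839979 to 110874145, plus strand), the effector kinase downstream of ATM, had 21.5 and 22.1 CPM in control and 19.9 and 15.9 CPM in Mps1sKO testes. The control libraries were close to each other, the Mps1sKO libraries were further apart, and the groups did not overlap. That amounts to a log2 fold change of −0.29 (95% interval −0.61 to 0.04, standard error 0.138, adjusted p = 0.573 by edgeR). Chek1 over Chek2 was 1.48 and 1.61 in control and 1.45 and 1.55 in Mps1sKO libraries, so this ratio too overlapped between the groups.

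H2afx (chromosome 9, 44334694 to 44336077, plus strand), the histone variant that carries the γH2AX mark, had 57.7 and 44.9 CPM in control and 51.3 and 66.0 CPM in Mps1sKO testes. Mps1sKO 2 was the highest library and control 2 the lowest, and the groups overlapped. The fitted log2 fold change came to 0.19 (95% interval −0.17 to 0.56, standard error 0.158, adjusted p = 0.718 by edgeR). The mRNA level says nothing of how much H2AX was phosphorylated, which these files do not measure.

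Mdc1 (chromosome 17, 35841515 to 35859670, plus strand), the protein that binds γH2AX, had 101 and 113 CPM in control and 110 and 94.9 CPM in Mps1sKO testes. The groups overlapped, with Mps1sKO 1 between the control libraries. On the log2 scale the fitted fold change was −0.06 (95% interval −0.32 to 0.19, standard error 0.109, adjusted p = 0.879 by edgeR). H2afx over Mdc1 was the most variable ratio of the 5 computed, at 0.569 and 0.397 in control and 0.464 and 0.695 in Mps1sKO libraries.

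Trp53bp1 (chromosome 2, 121193281 to 121271407, minus strand), which encodes 53BP1, had 155 and 174 CPM in control and 181 and 148 CPM in Mps1sKO testes. The highest and the lowest library were both Mps1sKO, and the means were equal to within rounding. In the edgeR fit this was a log2 fold change of 0.00 (95% interval −0.28 to 0.28, standard error 0.12, adjusted p = 0.998 by edgeR), and its sign changed with the scaling or the filter.

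Brca1 (chromosome 11, 101488764 to 101551955, minus strand), a ubiquitin ligase of homologous recombination that also acts in silencing the sex chromosomes, had 79.2 and 96.4 CPM in control and 78.1 and 58.8 CPM in Mps1sKO testes. Mps1sKO 1 was just under control 1, the groups did not overlap, and the mean was 77.9% of control. That amounts to a log2 fold change of −0.36 (95% interval −0.72 to −0.0044, standard error 0.153, unadjusted p = 0.0479 and adjusted p = 0.534 by edgeR), the largest of the 10 in size.

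Brca2 (chromosome 5, 150522630 to 150570329, plus strand), the loader of DMC1, had 95.3 and 126 CPM in control and 107 and 76.1 CPM in Mps1sKO testes. The groups overlapped, since Mps1sKO 1 lay above control 1. The fitted log2 fold change came to −0.27 (95% interval −0.70 to 0.16, standard error 0.183, adjusted p = 0.66 by edgeR), with the widest interval of the 10. Brca1 over Brca2 was 0.831 and 0.767 in control and 0.727 and 0.773 in Mps1sKO libraries.

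**Figure D2:**
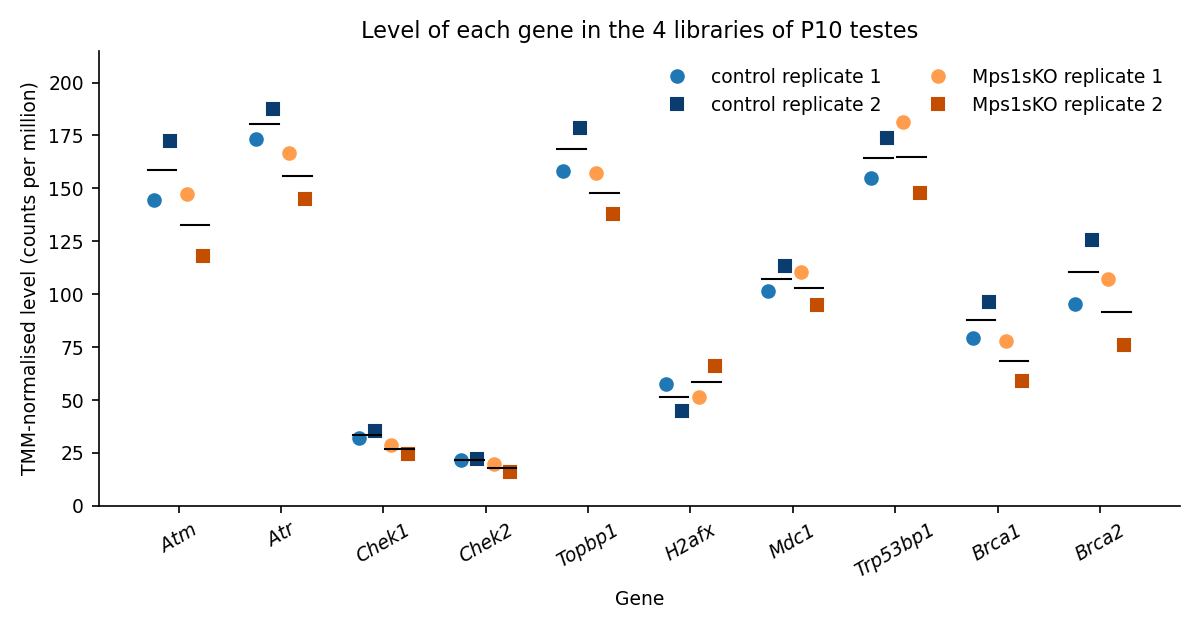
TMM-normalised level in CPM (y axis, linear from 0) of each of the 10 genes (x axis) in each library. Circles are replicate 1, squares replicate 2, blue control and orange Mps1sKO, and black lines are the means of the 2 libraries. The dark blue square is the highest and the dark orange square the lowest point for all genes but H2afx and Trp53bp1.

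Both Mps1sKO libraries lay below both control libraries for 5 of the 10 genes, Atr, Chek1, Chek2, Brca1 and Topbp1, where 21.1% of all tested loci did so. For 0 of the 10 did both lie above, against 20.3% of all loci. The order of the single libraries was more uniform than the split by genotype. Control 2 was the highest and Mps1sKO 2 the lowest library for 8 genes, all but H2afx and Trp53bp1, where 14.6% of all tested loci had that pattern. H2afx alone had the mirror pattern, with Mps1sKO 2 highest and control 2 lowest, which 14.5% of all loci had.

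Leaving out 1 library at a time describes how far the fold changes rested on control 2 and Mps1sKO 2. The direction of the shifts follows from the order of the libraries within each group, so these fits are no separate evidence. Such a fit has 1 library in a group, which is assumed to vary like the other group. At an unadjusted p below 0.05 by edgeR 4 genes were lower without control 1 and 7 without Mps1sKO 1, where 5.55% and 6.99% of all loci were lower in the same fits. Without control 2 and without Mps1sKO 2 it was 0 genes each, where 2.28% and 5.62% of all loci were lower. The log2 fold change of H2afx was 0.38 without control 1 and 0.36 without Mps1sKO 1. At an adjusted p below 0.05 each of these fits called 0. The median log2 fold change of the 10 ran from −0.37 to −0.10 over these fits. Brca1 ran from −0.58 to −0.17, Chek1 from −0.45 to −0.22 and Brca2 from −0.54 to −0.04, while H2afx ran from 0.00 to 0.38.

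**Figure D3:**
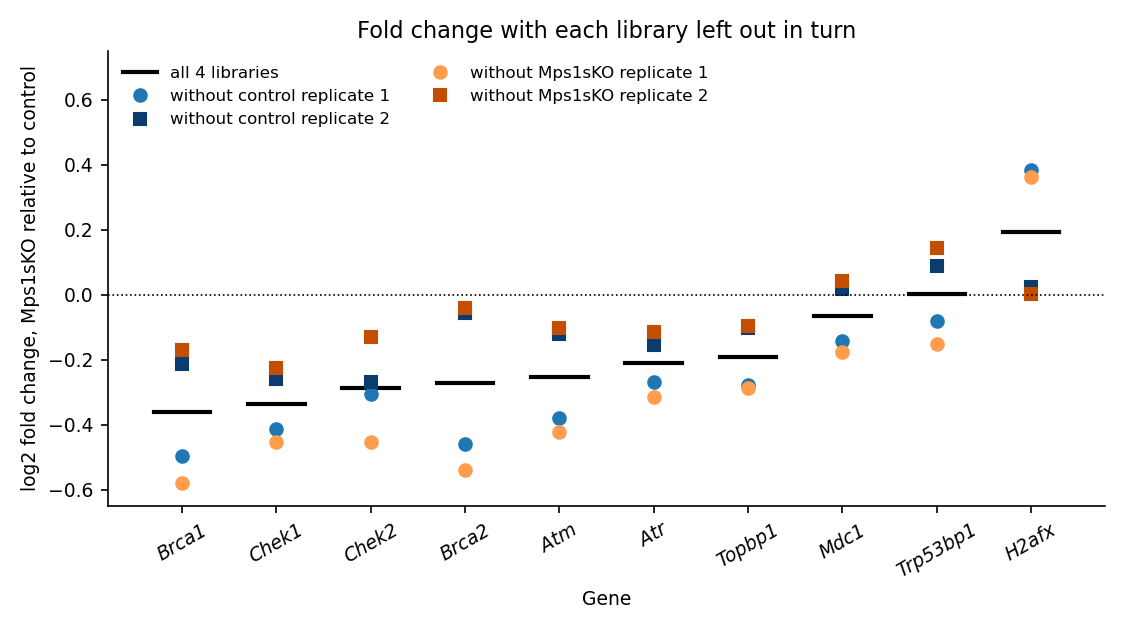
Log2 fold change in Mps1sKO relative to control (y axis) of each of the 10 genes (x axis) from all 4 libraries (black lines) and with 1 library left out (symbols named in the key). For 9 genes both values without a replicate 2 library (squares) lie above both values without a replicate 1 library (circles), and for H2afx they lie below. This split follows from the order of the 2 libraries within each group.

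Marker genes of cell types were set beside the 10 genes. Germ cell markers, 10 genes with a summed level of 1591 and 1874 CPM in control and 1460 and 1126 CPM in Mps1sKO testes, were highest in control 2 and lowest in Mps1sKO 2 like 8 of the 10 damage response genes. All 10 markers were lower in the Mps1sKO libraries, and 0 passed an adjusted p by edgeR. At an unadjusted p below 0.05 by edgeR 9 were lower, against 5.37% of all tested loci. The 12 spermatocyte markers summed to 969 and 1283 CPM in control and 855 and 675 CPM in Mps1sKO testes, which is 67.9% of control. Of these 12, 7 are in the study's own gene lists, which were chosen on these libraries and so are not independent evidence of the direction.

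At an unadjusted p below 0.05 by edgeR 4 of the 10 Sertoli cell markers were higher, against 3.92% of all tested loci. The 10 genes summed to 5274 and 5662 CPM in control and 7042 and 6232 CPM in Mps1sKO testes, which is 121% of control. Clu alone held 2900 to 4399 CPM of these sums. Without Clu, a step taken after the values were seen, the sums were 2374 and 2076 CPM in control and 2643 and 2913 CPM in Mps1sKO testes. Mps1sKO 2 was then the highest and control 2 the lowest library, as for 8 of the 10 Sertoli markers taken singly and for H2afx. Leydig cell markers were at 100% of control (2 lower, 4 higher) and peritubular myoid markers at 93.1% (4 lower, 0 higher). Macrophage markers were at 94.4% (5 lower, 0 higher) and endothelial markers at 107% (1 lower, 3 higher). The Leydig, macrophage and endothelial sums were highest in Mps1sKO 1, and the myoid sum in control 2. No marker of any list was at 0 in any library. Undifferentiated spermatogonia markers, highest in control 1, were at 86.2% of control, but only 6 of the 10 were lower and 4 were higher. Differentiating spermatogonia markers, highest in control 2, were at 71.7%, with all 6 lower. Stra8, a gene of this list, is among the altered genes of these libraries that the study measured by qPCR. The list is thus not wholly independent evidence of the direction. In these bulk samples fewer cells of a type and less RNA per cell cannot be told apart, and the part of cell makeup in the levels of the 10 genes was not tested.

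**Figure D4:**
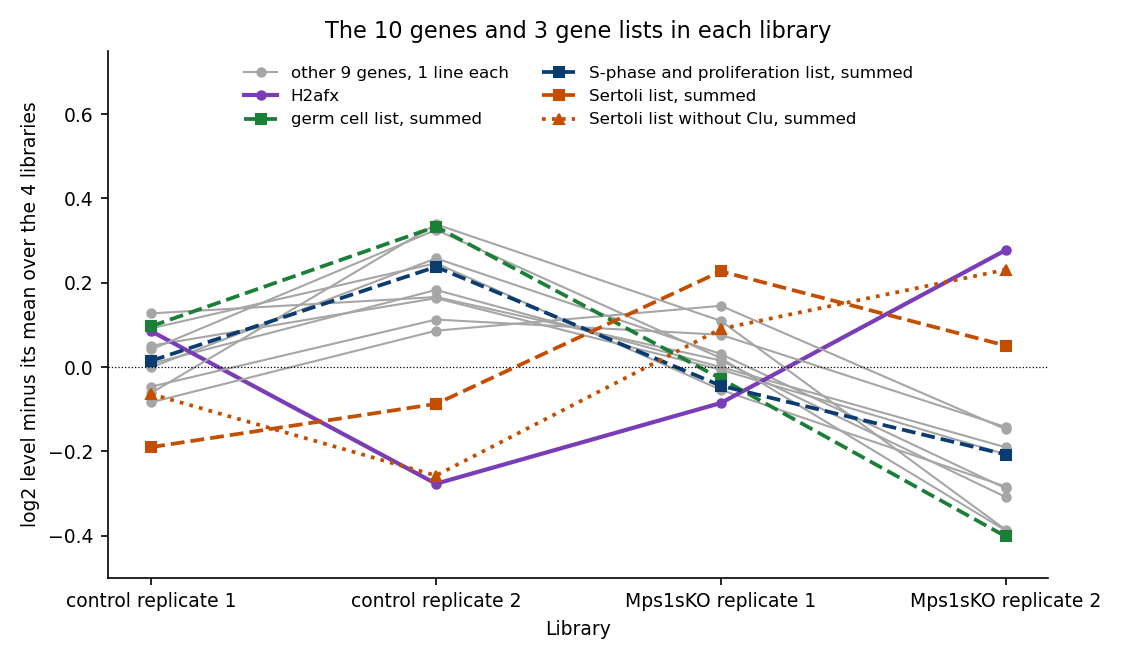
Log2 level minus its own mean over the 4 libraries (y axis) in each library (x axis), for the 10 genes (solid lines, H2afx in purple) and for the summed levels of the germ cell, S-phase and Sertoli lists (dashed lines, with the Sertoli sum without Clu dotted). The germ cell and S-phase sums are highest in control 2 and lowest in Mps1sKO 2, while H2afx and the Sertoli sum without Clu are highest in Mps1sKO 2 and lowest in control 2. With Clu the Sertoli sum is highest in Mps1sKO 1.

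The 18 genes of the S-phase and proliferation list, which many cell types of the young testis use, summed to 1833 and 2139 CPM in control and 1759 and 1571 CPM in Mps1sKO testes. Of these, 17 were lower and 1 higher, and 10 were lower at an unadjusted p below 0.05 by edgeR, against 5.37% of all tested loci. For 13 both Mps1sKO libraries lay below both control libraries, against 21.1% of all tested loci. The median log2 fold change was −0.29, and 0 passed an adjusted p by edgeR. Gmnn, the inhibitor of licensing, had a log2 fold change of −0.47 (unadjusted p = 0.00853) and Cdc6, a loader of the replicative helicase, −0.50 (unadjusted p = 0.00896). Top2a, the topoisomerase of dividing cells, had −0.39, and Ccna2, cyclin A2, had −0.28.

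The list of damage sensing and kinase activation, 22 genes around ATM and ATR, had a median log2 fold change of −0.14, with 19 lower and 3 higher. At an unadjusted p below 0.05 by edgeR 6 were lower and 1 higher, against 5.37% and 3.92% of all tested loci, and 0 passed an adjusted p. Rpa2, a subunit of the protein that coats single-stranded DNA, had 112 and 129 CPM in control and 96.3 and 87.2 CPM in Mps1sKO testes, with a log2 fold change of −0.39 (unadjusted p = 0.0064). Rad50, of the complex that recruits ATM to breaks, had a log2 fold change of −0.30, and Timeless, of the fork protection complex, had −0.30. Hus1b, a paralog of a subunit of the 9-1-1 clamp, had −0.64 at a low level of 1.60 to 2.81 CPM.

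Rad9a, the RAD9 subunit of the 9-1-1 clamp that brings TOPBP1 to ATR, was the 1 gene of that list with an unadjusted p below 0.05 that was higher. It had 19 and 59 counts in control and 154 and 120 counts in Mps1sKO testes, or 0.706 and 2.05 CPM against 6.65 and 4.48 CPM. The groups did not overlap, but the control libraries differed from each other by more than the Mps1sKO libraries in proportion. On the log2 scale the fitted fold change was 2.0 (standard error 0.422, unadjusted p = 0.00169 and adjusted p = 0.494 by edgeR). DESeq2 gave an adjusted p of 0.00642, and with edgeR the adjusted p was 0.00951 without control 1 and 1.18e-07 without control 2. It was 0.168 without Mps1sKO 1 and 0.0563 without Mps1sKO 2 by edgeR, and 0.915 with the replicate block. The log2 fold change was 1.43 without control 1 and 2.96 without control 2. Rad9a is also in the study's own gene lists, chosen on these libraries. The last 225 bases of its span overlap Ppp1ca on the other strand, a gene with 191 and 199 counts in control and 133 and 174 in Mps1sKO testes, and whether the counting used the strand is not given in the sources used here.

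Of the mediators and ubiquitin enzymes at breaks, 19 of 20 listed genes were tested and 16 were lower, where 49.9% of all tested loci were. The median log2 fold change of the list was −0.09. At an unadjusted p below 0.05 by edgeR 2 were lower and 0 higher, against 5.37% and 3.92% of all tested loci. The 2 were Rnf8, the ubiquitin ligase that MDC1 recruits, at −0.33 (unadjusted p = 0.0311), and Uimc1, which encodes the ubiquitin reader RAP80 of the BRCA1-A complex, at −0.24 (unadjusted p = 0.042). The remaining gene, Shld3, was not analysed here.

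Of the 18 checkpoint effectors and phosphatases, 10 were lower and 8 higher, and their summed level was 101% of control. At an unadjusted p below 0.05 by edgeR 2 were lower and 0 higher, against 5.37% and 3.92% of all tested loci. Ccnb1, cyclin B1, had a log2 fold change of −0.30 (unadjusted p = 0.00945), and Cdc25c, a phosphatase that CHK1 and CHK2 inhibit, had −0.35 (unadjusted p = 0.0323). Of the p53 genes in this list, chosen here after their values were seen, Trp53 had 88.8 and 94.4 CPM in control and 109 and 90.6 CPM in Mps1sKO testes, so the groups overlapped. Cdkn1a, the inhibitor p21, had 5.01 and 6.14 CPM in control and 7.38 and 7.02 CPM in Mps1sKO testes, with a log2 fold change of 0.37 (unadjusted p = 0.0709 and adjusted p = 0.567 by edgeR). Mdm2, Mdm4 and Ppm1d, also tied to p53, had log2 fold changes of −0.04, 0.12 and −0.17. The p53 genes of the list thus did not all go the same way.

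The meiotic partners of BRCA2 and ATR, 13 genes of recombination in spermatocytes, were further from 0 than the 10 genes themselves, with a median log2 fold change of −0.38 and all 13 lower. At an unadjusted p below 0.05 by edgeR 5 were lower, against 5.37% of all tested loci, and 0 passed an adjusted p. Dmc1, the meiotic recombinase that BRCA2 loads, had 32.2 and 42.4 CPM in control and 25.5 and 24.3 CPM in Mps1sKO testes, with a log2 fold change of −0.59. Hormad1, an axis protein needed for ATR recruitment to unsynapsed chromosomes, had 18.5 and 24.8 CPM in control and 15.1 and 10.9 CPM in Mps1sKO testes, with a log2 fold change of −0.74. These 2 passed the study's cut-offs, Dmc1 only barely, and Hormad1 is in the study's own lists. Dmc1 no longer passed them with DESeq2 (log2 fold change −0.581), edgeR on DESeq2 size factors (−0.581), limma-voom (−0.576), the replicate block (−0.574), the crossed block (−0.574), without control 2 (−0.37) or without Mps1sKO 2 (−0.55). Hormad1 no longer passed them with the replicate block (unadjusted p = 0.0126 by edgeR), without control 2 (log2 fold change −0.51) or without Mps1sKO 2 (−0.52). Hsf2bp, the meiotic BRCA2 partner MEILB2, had a log2 fold change of −0.54. The difference between this list and the 10 genes was not tested.

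**Figure D5:**
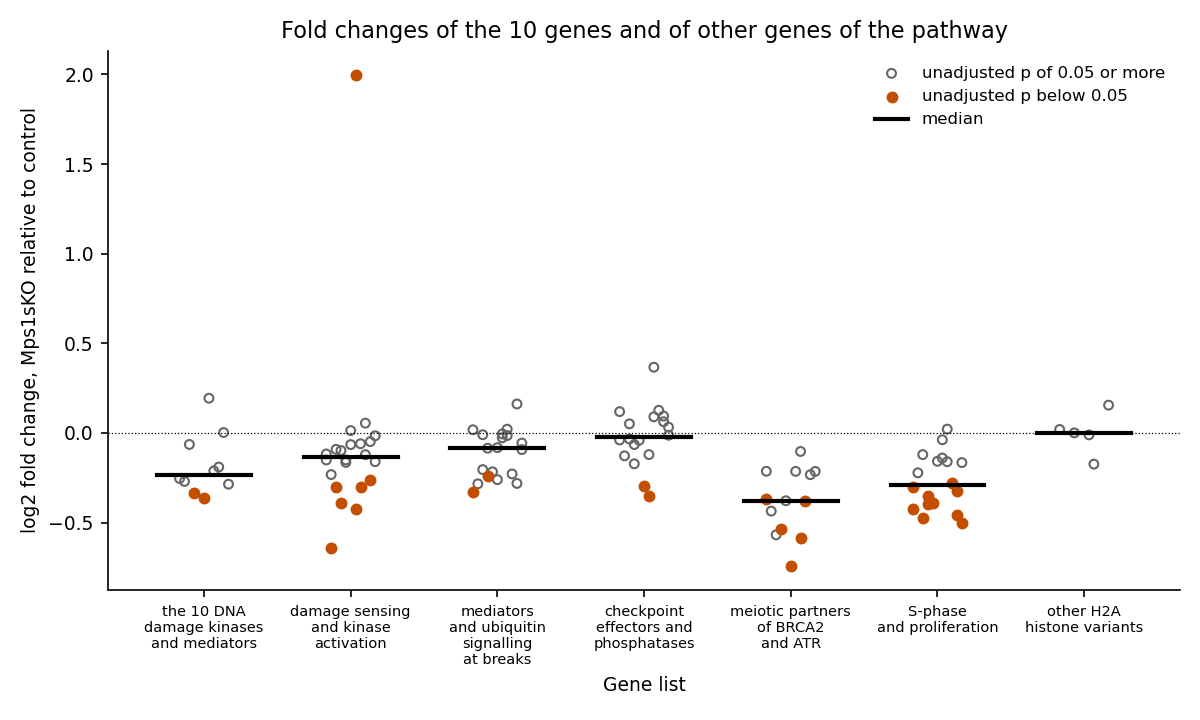
Log2 fold change in Mps1sKO relative to control (y axis) of every tested gene in 7 lists (x axis), the 10 damage response genes at the left. Filled points have an unadjusted p below 0.05 by edgeR and black lines are medians, which run from −0.38 for the meiotic partners to 0.00 for the other H2A variants. The filled point at 2.0 is Rad9a.

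The 5 other H2A variants gave a frame for H2afx. Their summed level was 474 and 448 CPM in control and 391 and 523 CPM in Mps1sKO testes, highest in Mps1sKO 2 as for H2afx, but lowest in Mps1sKO 1. Their median log2 fold change was 0.00 and 0 had an unadjusted p below 0.05. H2afj, chosen here after its values were seen, spread most, from 24.6 CPM in Mps1sKO 1 to 49.6 CPM in Mps1sKO 2. The control libraries were close to each other in the sum of the list, and the Mps1sKO libraries were further apart.

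Levels between genes can be compared only per length. By the deposited FPKM values in control testes, which divide by the gene length in the table, the highest were H2afx at 36.8 ± 6.43 (SD, n = 2), Atm at 15.2 ± 1.95, Topbp1 at 14.9 ± 1.30 and Mdc1 at 14.4 ± 1.14. Then came Trp53bp1 at 11.5 ± 0.976, Brca1 at 10.2 ± 1.43 and Brca2 at 8.04 ± 1.58. The lowest were Atr at 7.58 ± 0.431, Chek1 at 7.22 ± 0.558 and Chek2 at 7.21 ± 0.149. The control ranges of neighbours in that order did not overlap between H2afx and Atm, between Mdc1 and Trp53bp1 and between Brca1 and Brca2, and overlapped in the other 6 pairs. The order of the genes depended on the length used. For Atr the length in the table is 23629 bases and the longest coding transcript 8102 bases. Per kilobase of that transcript Atr moved from place 8 to place 3, at 22.3 CPM per kb. By the same measure Atm moved from place 2 to place 5, at 16.2 CPM per kb and so below Atr. Mdc1 moved from place 4 to place 6. Topbp1, with 11226 and 5224 bases, came to 32.3 and H2afx to 37.1 on that scale. Chek1 and Chek2 were at the low end on both scales.

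Neighbouring genes shared the start region or part of the locus. Npat, a regulator of histone gene transcription that starts 307 bases from Atm, had a log2 fold change of −0.15 (adjusted p = 0.698 by edgeR). Nbr1, an autophagy receptor 194 bases from Brca1, had 240 and 254 CPM in control and 252 and 223 CPM in Mps1sKO testes, with a log2 fold change of −0.06. Brca1 and Nbr1 thus differed in size of change although they share the promoter stretch shown above, a difference that was not tested. Hscb, an iron-sulphur cluster chaperone 202 bases from Chek2, had 20.8 and 24.8 CPM in control and 14.0 and 17.6 CPM in Mps1sKO testes, with a log2 fold change of −0.53 (unadjusted p = 0.00992 and adjusted p = 0.494 by edgeR). 1300017J02Rik, 133 bases from Topbp1, was low at 1.90 to 3.27 CPM, and Gm48853, 308 bases from H2afx, had 3 to 10 counts and was not tested.

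Genes that overlap 1 of the 10 on the other strand could share its reads if the counting ignored the strand. Tubgcp4 overlaps the end of Trp53bp1 and had 1123 to 1444 counts, against 3965 to 5018 for Trp53bp1. Gm16794 and 1700065D16Rik overlap Atr, with at most 116 and 45 counts. On the same strand Gm42531 lies within Brca2 and had at most 79 counts. The remaining overlapping genes, Gm24004, Gm44335, Gm42529, Gm23641 and Gm25284, had at most 2 counts in any library.

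Of the 10 genes, 5 lie on chromosome 9 with Ttk itself, at distances from 12.0 Mb (Atr) to 47.1 Mb (Chek1). Over the 1155 tested loci of that chromosome 50.4% were lower and the median log2 fold change was 0.00, as over all loci. The genes whose pattern over the 4 libraries was nearest to that of Chek1, which had the smallest p of the 10, were Nlrc3, Slc31a2 and Fam107b. Their distances from Chek1 in centred log2 CPM were 0.00698, 0.0168 and 0.0202, and 127 of 13259 genes lay within 0.1, so 4 libraries hardly separate such patterns.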

How the data were processed

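The authors deposited raw counts and FPKM values per gene for 4 libraries of whole P10 testes (NEBNext Ultra kit, paired-end reads of an Illumina NovaSeq). Per the submitters' processing notes, reads were aligned to mm10 with HISAT2 2.0.5 and counted with featureCounts, and DESeq2 1.16.1 was used. The annotation and the strand setting are not given in the sources used here, but the coordinates of all 10 genes were those of GENCODE M21. The deposited gene length, also in the table, was used to read the FPKM values, which served only for the order of levels.

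Groups follow the genotype given in the labels. The test used edgeR 4.0.16 with R 4.3.3 on the counts (filterByExpr, TMM, quasi-likelihood F test on genotype, Benjamini-Hochberg over 20561 loci). The common biological coefficient of variation was 0.106. Within a genotype the libraries differed beyond counting error (chi-square per degree of freedom 8.49 and 11.6). Alternatives were DESeq2 1.42.0, limma-voom (limma 3.58.1), other scalings and filters, the replicate number as a block, and each library left out. The tests were checked on simulated data. Sequences were read with Python 3.11.15 and pandas 2.3.3. The genes, lists and tests were chosen with earlier results of these data known. Named from each pathway list were the genes with the smallest unadjusted p below 0.05, at most 4 in each direction, apart from 1 gene that is not reported here. Brme1 was measured as 4930432K21Rik. No protein sequences were used here.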

Additional observations from a re-analysis of the deposited data

How the results depend on the processing

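The sign of 8 of the 10 genes was the same under every alternative tried, and the exceptions were Trp53bp1 and Mdc1. The log2 fold change of Trp53bp1 was −0.019 with library totals only, −0.0037 with limma-voom, −0.0045 with at least 10 counts in every library, −0.0025 with the replicate block and −0.0021 with the crossed block, and it ran from −0.15 to 0.14 with 1 library left out. That of Mdc1 ran from −0.18 to 0.042 with 1 library left out.

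The number of the 10 genes lower at an unadjusted p below 0.05 by edgeR was 2. It became 1 with edgeR on DESeq2 size factors and 0 with the replicate block, where 5.12% and 3.34% of all loci were lower. Without a filter on low counts it was 6, where 4.8% of 35262 loci were lower. It was 2 with library totals, DESeq2, limma-voom and a minimum of 10 counts, where 1.69% to 6.25% were. The 1.69%, that of DESeq2, was also over 35262 loci, so it and the 4.8% include loci with few counts. With 1 library left out the median log2 fold change of the 10 genes ran from −0.37 to −0.10. In these fits the number of the 10 with every remaining Mps1sKO library below every remaining control library ran from 5 to 9. The number with every one above ran from 0 to 1. A group of 1 library overlaps less easily, for any locus. The share of all loci without overlap was not computed for these fits, so these counts say nothing of the 10 genes relative to all loci. The deviations of same-numbered libraries had a weak negative correlation (−0.162 over 20551 genes). It cannot show whether the numbers pair the libraries. A crossed replicate block, chosen after seeing the data, gave 7 lower and 1 higher at an unadjusted p below 0.05 by edgeR. It gave 1 lower at an adjusted p. In that fit 9.32% of all loci were lower at an unadjusted p, and the share that was higher was not computed. Over all tested loci, calls at an adjusted p below 0.05 by edgeR were 6 lower and 0 higher, against 30 and 7 with DESeq2, 251 and 139 without a filter, 2 and 0 with the replicate block and 304 and 246 with the crossed block. The cause of these shifts was not tested. With 2 libraries per group the precision is limited, and the widest 95% interval, that of Brca2, ran from −0.70 to 0.16.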
